A study of Mus musculus with 16 samples.

Results

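The genes described here are 8 genes of the epithelial apical junction, Cldn1, Cldn3, Cldn4, Cldn7, Ocln, F11r, Tjp1 and Epcam, chosen by name from the 17721 genes in the deposited table and all measured in it. Their transcripts were counted in single cells from 16 mammary fragments of C57BL/6 mice, namely 4 nipple fragments, 6 ducts and 6 terminal end buds (TEBs), the growing tips of the ducts at puberty. The sequencing workflow names mice aged 5 weeks of the genotype K14-Cre/R26-mTmG, in which a recombinase driven by the keratin 14 promoter switches a membrane reporter from tomato to GFP in keratin 14 expressing cells and their progeny. The dissection protocol also allows wild-type and slightly older mice, and the labels give neither genotype nor age. The study's supplement gives this age and genotype for all of its single-cell samples. The labels name no treatment, and by the study's account the fragments share strain, genotype and age and differ in location. Each fragment was dissociated and its cells were sorted into wells of 96-well plates, where transcripts were tagged at the 3′ end with unique molecular identifiers (UMIs). The labels do not tie fragments to mice, so p-values here measure the spread between fragments.

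Tight junctions close the space between neighbouring epithelial cells near the lumen. Claudins form the strands that set how tight the seal is, occludin and junctional adhesion molecule A are further membrane proteins of the strand region, and ZO-1 anchors them to actin on the inside. In the mammary gland the seal lies between luminal cells, which face the duct lumen, while basal myoepithelial cells lie outside them against the basement membrane; luminal cells fall into hormone-sensing ER+ cells and ER- cells, which include alveolar progenitors.

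By role, Cldn1, Cldn3, Cldn4 and Cldn7 encode claudins, Ocln encodes occludin, F11r encodes junctional adhesion molecule A, Tjp1 encodes ZO-1, and Epcam encodes an adhesion protein of the lateral membrane that binds claudin-7. In the GENCODE M21 annotation of GRCm38, Cldn3 (chromosome 5, 134986214 to 134987472, plus strand) and Cldn4 (chromosome 5, 134945119 to 134946934, minus strand) each have a single exon and lie 39279 bases apart with 0 annotated genes between them. Cldn1 lies on chromosome 16 (26356642 to 26371841, minus strand), Cldn7 on chromosome 11 (69964779 to 69967885, plus strand) and Ocln on chromosome 13 (100496507 to 100552718, minus strand). F11r lies on chromosome 1 (171437535 to 171464603, plus strand), Tjp1 on chromosome 7 (65296165 to 65527781, minus strand) and Epcam on chromosome 17 (87635979 to 87651129, plus strand). The exon of Cldn3 overlaps an exon of Wbscr25 on the opposite strand. Whether counting used the strand is not given in the sources used here, so reads of this pair may not be separable.

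The promoters were searched because 5 of the 8 genes were lower in basal than in luminal cells of every fragment, and the E-box CACCTG is the letter pattern recognised by the Snail and Zeb repressors of epithelial genes. In RefSeq promoters on GRCm38.p6, from 250 bases before to 50 after the start of each gene, CACCTG on either strand was present in 20.2% of 32851 promoters and in 7 of the 10 promoters of the 8 genes, which belong to Cldn3, Cldn4, Cldn7, Epcam, F11r and Ocln. The 30-base windows below show 1 match for each of these genes, in the direction of the gene, with the E-box or its reverse complement CAGGTG in capitals. They lie at chr5:134986233-134986262 (Cldn3), chr5:134946906-134946935 (Cldn4), chr11:69965352-69965381 (Cldn7), chr17:87635948-87635977 (Epcam), chr13:100552694-100552723 (Ocln) and chr1:171437427-171437456 (F11r).
Cldn3: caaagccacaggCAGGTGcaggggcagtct
Cldn4: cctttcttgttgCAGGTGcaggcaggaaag
Cldn7: agacttccggttCAGGTGagtgtcccttca
Epcam: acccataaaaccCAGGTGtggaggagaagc
Ocln: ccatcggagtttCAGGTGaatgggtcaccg
F11r: agttcggggttgCACCTGcgtacggtgagt
The promoters of Cldn1 and Tjp1 held no CACCTG in this window. Ocln counts more than once, through overlapping promoters that share the match shown. F11r holds a match but was not lower in basal than in luminal cells of every fragment. The GC box GGGCGG was present in 9 of the 10 promoters and in 35.7% of all, and the Grainyhead-like pattern AACCNGTT was present in 0 of the 10 and in 2.09% of all, both strands searched. A match is a run of letters and was not tested as a binding site.

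Of 1419 deposited cells, 1317 passed the limits on spike-ins, UMIs and genes. Clustering gave 294 basal cells (97 nipple, 115 duct, 82 TEB), 426 ER+ luminal cells (43, 211 and 172) and 178 ER- luminal cells (48, 81 and 49). Basal cells fell into 2 clusters, of which the first held 96 nipple, 115 duct and 1 TEB cells and the second 1 nipple, 0 duct and 81 TEB cells, so basal comparisons with TEBs are also comparisons between clusters. ER+ cells also fell into 2 clusters, which held 15 nipple, 102 duct and 113 TEB cells and 28, 109 and 59 cells. The summed level of 10 basal markers was 19280 to 22390 counts per 1e+06 UMIs of the class (CPM) in nipple basal cells, 23150 to 31420 in duct and 4165 to 8239 in TEB. Cldn1, Cldn3, Cldn4, Cldn7 and Epcam were among the 2000 variable genes used for clustering, but every basal, ER+ and ER- cell kept its class (294, 426 and 178 cells) when junction genes were left out of the clustering. UMIs of all cells of a class in a fragment were summed, and levels are CPM of these sums. All 16 fragments gave a basal and an ER+ sum, and 14 gave an ER- sum, because 2 TEB fragments, T31 and T43, had under 5 ER- cells; in every ER- comparison, TEB therefore has n = 4. The sums hold 227131 to 2061534 UMIs.

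Transcripts of fibroblast genes were found in the epithelial wells of every fragment, which limits what a low count can mean. The level of fibroblast markers in basal cells averaged 1599 CPM in nipple fragments, 374 in duct and 334 in TEB; in ER+ cells the means were 1665, 320 and 281, and in ER- cells 1290, 209.5 and 200. All 7 of 7 markers of that list were detected in each class and location, while the lymphocyte markers Cd3e and Cd79a were at 0 in all of them. The lymphocyte marker Cd3g was detected only in TEBs, at a mean of 0.13 CPM in basal cells and 0.14 in ER+ cells. From fibroblast and myeloid markers, the share of a well's UMIs that matched the pooled RNA of its fragment was estimated at 7.53% (nipple), 11.6% (duct) and 9.33% (TEB) in basal cells. The pool holds all cells of the fragment past the limits, the compared cells included. Taking these markers as not expressed by the epithelial cells themselves, this share gives, for each gene, a number of UMIs expected without expression in the cell itself, and counts at or under that number cannot be told from background. Their part in the location differences was not tested beyond the values given beside each gene.

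Cldn3, Cldn4, Cldn7, Ocln and Epcam were lower in basal cells than in ER+ luminal cells in 16 of 16 fragments and lower than in ER- cells in 14 of 14. Scaled together, Cldn3 averaged 47.4 ± 41.2 CPM (SD, n = 16) in basal, 1157 ± 181 (n = 16) in ER+ and 1761 ± 237 (n = 14) in ER- cells. Cldn4 averaged 173 ± 102 CPM in basal, 2542 ± 408 in ER+ and 2189 ± 701 in ER- cells. Cldn7 averaged 47.2 ± 41.3, 933 ± 194 and 1294 ± 269 CPM in the same order. These 3 claudins thus stood far below the luminal range in basal cells, whose highest fragment reached 156 CPM for Cldn3, 365 for Cldn4 and 171 for Cldn7, against lowest ER+ fragments of 768, 1959 and 568. Ocln averaged 22.4 ± 26.2 CPM in basal, 124 ± 30.5 in ER+ and 117 ± 42.1 in ER- cells. Its ranges overlapped, with a highest basal fragment of 86.96 CPM against lowest fragments of 76.55 in ER+ and 43.78 in ER- cells. In the fragment where basal and ER+ cells were closest, Ocln differed by -0.018 on the log2 scale. Epcam, which basal cells also express, averaged 841 ± 214, 2115 ± 333 and 3050 ± 495 CPM.

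Between the luminal classes, Cldn3 was higher in ER- than in ER+ cells in 14 of 14 fragments, and Cldn1, Cldn7 and Epcam in 13 of 14. Cldn1 was the gene with an ER- pattern, at 161 ± 96.5 CPM in ER- cells against 14.2 ± 17.7 in ER+ and 8.23 ± 11.3 in basal cells. Cldn4 went the other way in most fragments, with a higher ER+ level in 10 of 14, and Ocln was higher in ER+ cells in 9 of 14, so neither separated the luminal classes. F11r averaged 198 ± 70.2 CPM in basal, 262 ± 52.7 in ER+ and 273 ± 93.3 in ER- cells, and Tjp1 averaged 32.1 ± 19.0, 50.2 ± 28.0 and 53.8 ± 39.7. The ranges of F11r and of Tjp1 overlapped among all 3 classes, and basal cells were the lower class against ER+ cells in 11 and 10 of 16 fragments. These orders between classes are descriptions without a test, since the classes were made from the same cells.

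**Figure D1:**
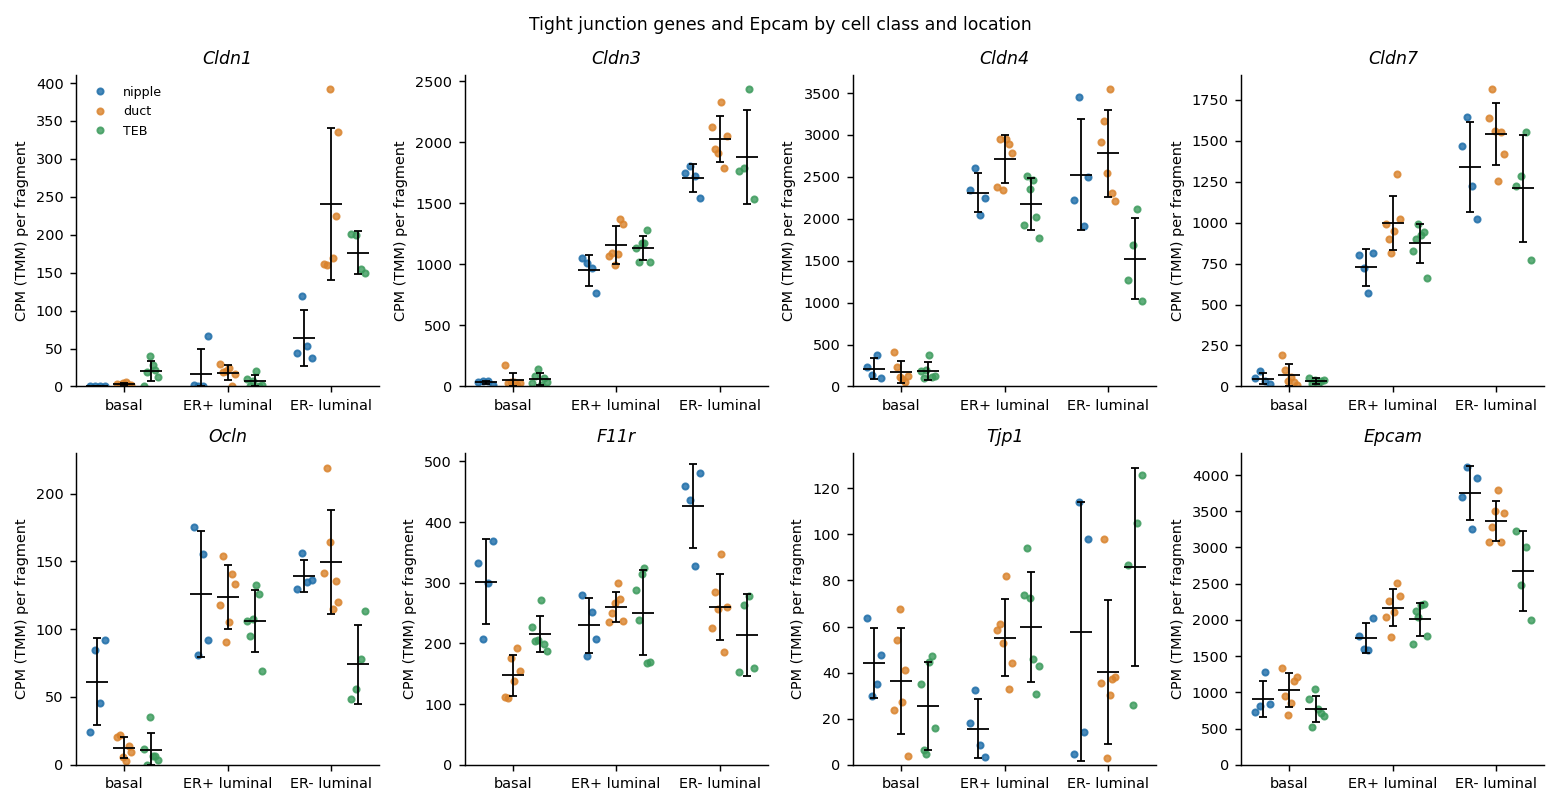
Level of each gene (CPM of the class sum, linear axis from 0) in every fragment, by cell class on the horizontal axis and by location in colour; points are fragments, black dashes the means and bars the SD, cut at 0. Cldn3, Cldn4, Cldn7, Ocln and Epcam lie lowest in basal cells, although Ocln in nipple basal cells overlaps luminal fragments. Cldn1 is high in ER- cells of duct and TEB, and Tjp1 is low in ER+ cells of the nipple.

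Per cell, every gene was detected least often in basal cells among the epithelial classes. For F11r and Tjp1 the basal interval overlapped those of the luminal classes, and for Cldn1 that of ER+ cells. The order of the luminal classes turned against the CPM for F11r, Tjp1 and Ocln, whose intervals overlapped there. After thinning each cell to 5000 UMIs, which removed differences in depth and left out 1 ER- cell, Cldn3 was detected in 12.9% of basal cells (exact 95% interval 9.31 to 17.3), 96.2% of ER+ cells and 98.3% of ER- cells, while fibroblasts and myeloid cells, which should lack it, were both at 10.3%. Before thinning, Cldn3 was detected in 41.5% of basal cells and 36.1% of fibroblasts, at median depths of 25530.5 and 36684 UMIs per cell. Over all locations together, the basal interval for Cldn3 therefore spans the background share. In nipple fragments Cldn3 was detected in 11.3% of thinned basal cells (5.8 to 19.4) and 1.72% of fibroblasts (0.209 to 6.09). In ducts these shares were 13% and 13.2%, and in TEBs 14.6% and 19.4%. Cldn7 was detected in 18% of thinned basal cells (13.8 to 22.9) and 11.5% of fibroblasts, and Cldn4 in 38.8% of basal cells (33.2 to 44.6), 21% of fibroblasts and 34.6% of myeloid cells. F11r stood clear of this background, with 54.1% of basal cells against 4.76% of fibroblasts and 12.8% of myeloid cells, as did Epcam, with 93.9% against 21.4% and 30.8%. Cldn1 was detected in 44.6% of thinned ER- cells (37.2 to 52.3), 3.52% of ER+ cells, 3.06% of basal cells and 1.19% of fibroblasts. Transcripts of all of Cldn3, Cldn4, Cldn7 and Epcam were found together in 2.72% of thinned basal cells, 89% of ER+ cells and 95.5% of ER- cells. Intervals cover counting error only.

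**Figure D2:**
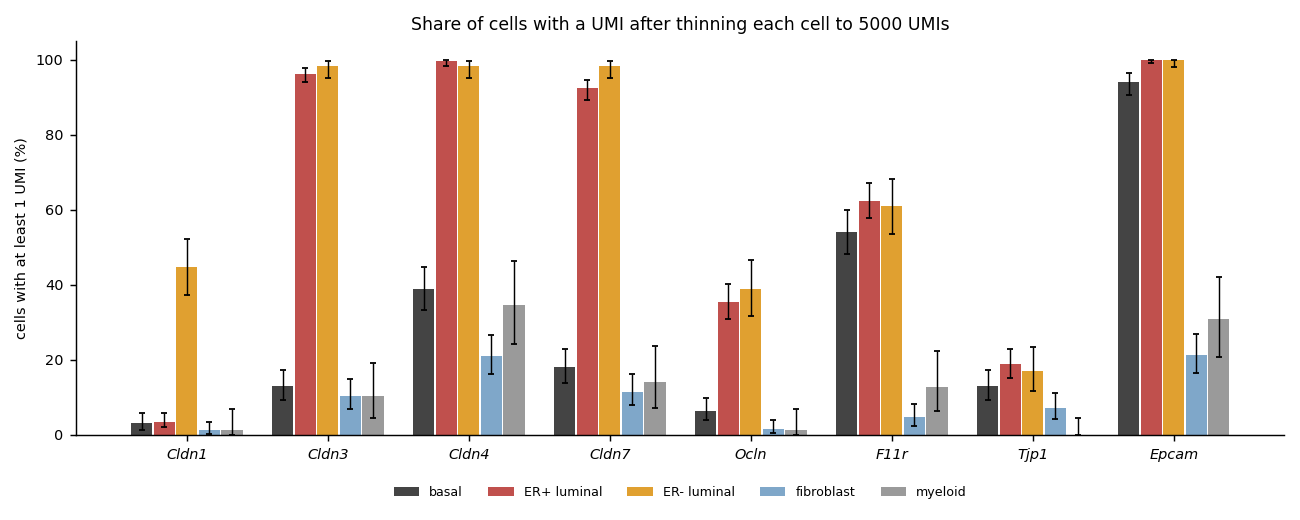
Share of cells with at least 1 UMI of each gene (vertical axis, percent) after thinning every cell to 5000 UMIs, for the 3 epithelial classes and for fibroblasts and myeloid cells; bars start at 0 and error bars are exact 95% binomial intervals over cells. With all locations pooled, Cldn3 lies at 12.9% in basal cells and 10.3% in fibroblasts, while F11r lies at 54.1% and 4.76%.

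Set against the expectation from the pooled RNA, Cldn3 and Cldn7 in basal cells of ducts and TEBs were not above it. Cldn3 had 123 UMIs in duct basal cells against 290 expected and 229 in TEB against 349, and Cldn7 had 161 against 243 and 138 against 233. For these genes the expectation was 151% to 236% of the UMIs counted. Background cannot exceed the total, so the expectation is too high there, and counts under it show neither expression nor its absence. In nipple basal cells Cldn3 was near its expectation, at 66 UMIs against 59.5, and Cldn7 was above it, at 104 against 46.6. Of these 104 UMIs, 59.6% lay in 5 of 97 cells. The thinned shares ordered these genes otherwise. Cldn7 was detected in 10.3% of nipple basal cells and 10.3% of nipple fibroblasts, and Cldn3 in 11.3% and 1.72%. Whether either gene stands above background in nipple basal cells is not settled by these values. Cldn4 was above it in nipple basal cells, at 402 UMIs against 120, and near or under it in duct (413 against 596) and TEB (609 against 539). Ocln had 129 UMIs in nipple basal cells against 8.49 expected, whereas the 31 in duct and 35 in TEB were close to 28.9 and 28.4. F11r, Tjp1 and Epcam were above the expectation at every location, with expectations that came to at most 21.9% of the UMIs counted. In the luminal classes the expectation was at most 36.2% of the UMIs counted for any gene and location, a value reached by Cldn1 in ER+ cells of TEBs.

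**Figure D3:**
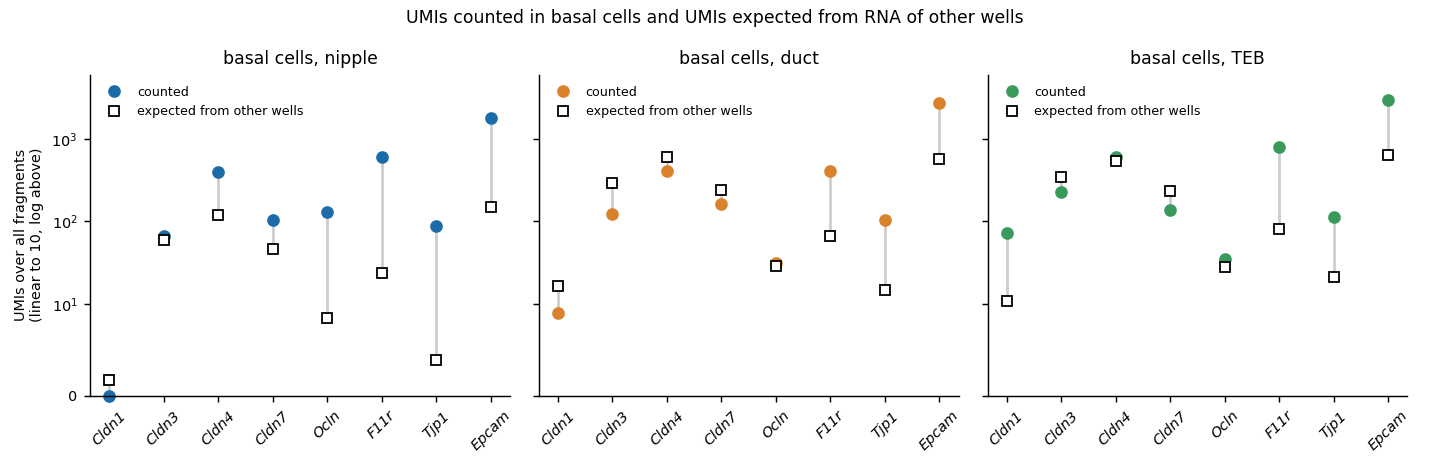
UMIs of each gene counted over all basal cells of a location (filled circles) and the number expected from the pooled RNA of all cells of the same fragments (open squares, marked in the figure as from other wells). The vertical axis is linear to 10 and logarithmic above. Ocln and Cldn4 lie above the squares in nipple fragments, F11r, Tjp1 and Epcam in all panels, and Cldn3 and Cldn7 lie at or under them in duct and TEB.

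Locations were compared within each class with edgeR's quasi-likelihood test over the fragments, with Benjamini-Hochberg adjustment over all genes tested in the class. In basal cells 7 of the 8 genes passed the filter on low counts. Across the 3 locations 2 of these 7, Ocln and F11r, passed an adjusted p of 0.05, where 20.6% of 7316 genes did. Nipple and TEB differed for 1 of 7 (18.7% of all genes), nipple and duct for 1 of 7 (6.29%), and duct and TEB for 0 of 7 (10.4%); in the last comparison 2 genes, F11r and Epcam, had an unadjusted p under 0.05, and DESeq2 also called 0. With so many basal genes differing by location, the share of junction genes that did was near the background or, with 0 or 1 gene, too small to set apart from it. The median log2 difference of the 7 genes was 0.49 between nipple and TEB, against -0.05 over all genes tested.

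In ER+ luminal cells 8 of 8 genes were tested and 1, Tjp1, passed across locations (5.56% of 8781 genes), between nipple and TEB (5.57%) and between nipple and duct (2%). Between duct and TEB 0 of 8 passed (1.64% of all genes); Cldn4 alone had an unadjusted p under 0.05, and DESeq2 called 0 as well. In ER- luminal cells 2 of 8, Cldn1 and Cldn4, passed across locations (4.10% of 5706 genes), 3 of 8 between nipple and TEB (4.57%), 1 of 8 between nipple and duct (1.63%) and 1 of 8 between duct and TEB (1.14%). Cldn3 passed in no class and no comparison, and Cldn7 in none of the reported tests or by DESeq2, but without a filter on low counts Cldn7 passed in ER+ cells between nipple and duct (log2 difference -0.50, adjusted p = 0.037) and across locations (0.047). At an unadjusted p under 0.05 Cldn3 would pass between nipple and TEB and between nipple and duct in ER+ cells, and Cldn7 between nipple and duct and across locations there.

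**Figure D4:**
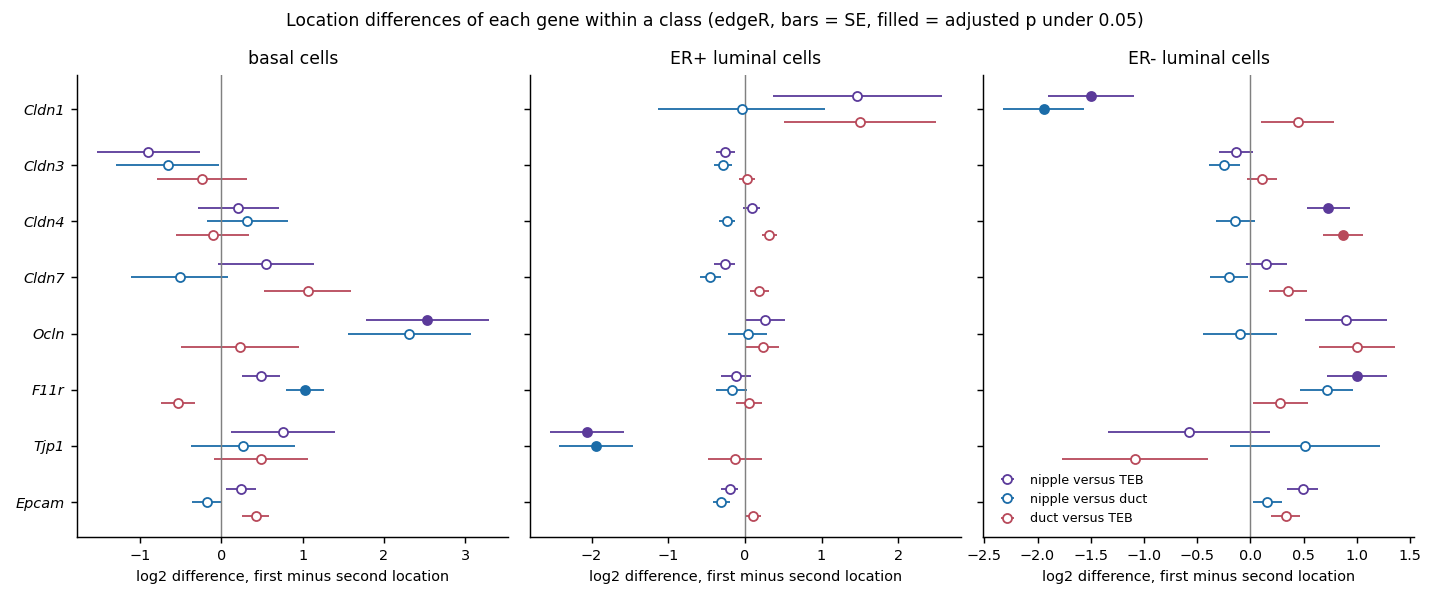
Log2 difference between locations (horizontal axis, first minus second location named) for each gene in basal, ER+ and ER- luminal cells; points are edgeR estimates, bars their SE, and filled points have an adjusted p under 0.05. Filled points are Ocln and F11r in basal cells, Tjp1 in ER+ cells, and Cldn1, Cldn4 and F11r in ER- cells; Cldn1 was not tested in basal cells.

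Cldn1, a claudin known from the skin barrier, was lower in ER- cells of the nipple than of ducts and TEBs. In ER- cells Cldn1 was at 44.7, 119, 52.9 and 38.0 CPM in the 4 nipple fragments. Ducts ranged from 160.3 to 392 CPM with a median of 197, and the 4 TEB fragments were at 201, 199.8, 155 and 149. All nipple fragments thus lay below all others. The mean was 63.6 ± 37.2 CPM (SD, n = 4) in nipple, 240.3 ± 99.9 (n = 6) in duct and 177 ± 27.9 (n = 4) in TEB. The log2 difference for Cldn1 was -1.94 (SE 0.38, adjusted p = 0.0034) between nipple and duct and -1.50 (SE 0.40, adjusted p = 0.024) between nipple and TEB. Across locations the adjusted p for Cldn1 was 0.0052, and it stayed under the threshold without any single fragment (0.0011 to 0.028). The nipple and TEB comparison of Cldn1 did not pass without N21 (adjusted p = 0.07), N23 (0.059), N24 (0.082), T32 (0.062) or T33 (0.064), nor with only these locations in the fit (0.079) or with at least 10 cells per fragment (0.33). The share of thinned ER- cells with Cldn1 was 19.1% (9.15 to 33.3) in nipple, 54.3% (42.9 to 65.4) in duct and 53.1% (38.3 to 67.5) in TEB. In the same ER- sums the summed level of the 10 basal markers was 1917 to 3711 CPM in nipple, 297.5 to 831 in duct and 57.5 to 185 in TEB. Its part in the ER- differences of Cldn1, Cldn4, Ocln, F11r and Epcam was not tested.

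In basal cells Cldn1 had 0 UMIs of 2176725 in the 4 nipple fragments, and a floor of 3 UMIs over that group is 1.38 CPM. It had 9 UMIs in duct basal cells, under the 16.4 expected from the pooled RNA. In TEB basal cells Cldn1 had 72 UMIs, against 10.8 expected, in 5 of 6 fragments and 16 of 82 cells, with 69.4% of them in 5 cells. The pooled TEB level of 19.3 CPM was at least 14-fold higher than the nipple floor. Cldn1 fell under the filter on low counts in the reported basal fit, but without that filter it passed between nipple and TEB and across locations. It also passed between nipple and TEB with only these locations in the fit, and in both tests without any single nipple fragment. With 0 nipple UMIs, Cldn1 entered those filtered fits only through its TEB counts, so their passes add no support for a difference. In ER+ cells Cldn1 was near 0 in 3 nipple fragments and at 66.1 CPM in N24, where a single cell held 41 of the 42 nipple UMIs; ducts ranged from 0 to 29.3 CPM and TEBs from 0 to 20.7, and no comparison passed.

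Cldn3, Cldn4 and Cldn7 are claudins of many simple epithelia, and among them Cldn4 differed by location in ER- cells. In ER- cells Cldn4 was at 2224, 3450, 1917 and 2500.0 CPM in nipple fragments. Ducts ranged from 2212 to 3545 CPM with a median of 2729, and TEBs were at 1274, 1682, 2121 and 1014, below every duct and below 3 of the 4 nipple fragments. The mean was 2523 ± 662 CPM (n = 4) in nipple, 2782 ± 519 (n = 6) in duct and 1523 ± 484 (n = 4) in TEB. Cldn4 was higher in duct than in TEB by 0.87 on the log2 scale (SE 0.19, adjusted p = 0.011) and higher in nipple than in TEB by 0.73 (SE 0.20, adjusted p = 0.03). Without T42 the duct and TEB difference of Cldn4 was 0.73 (adjusted p = 0.066) and the test across locations gave 0.057 in place of 0.011. With the first digit of the label number as a block the duct and TEB difference was 0.85 (adjusted p = 0.093). The nipple and TEB difference of Cldn4 did not pass without N22 (adjusted p = 0.14), N24 (0.068), T32 (0.091) or T42 (0.13), nor with only these locations in the fit (0.063) or with scaling without regression (0.052), and with at least 10 cells per fragment no difference of Cldn4 passed (0.32 across locations). In ER+ cells Cldn4 averaged 2311 ± 232 CPM in nipple, 2716 ± 286 in duct and 2175 ± 310 in TEB (adjusted p = 0.086 across locations). That test passed under 6 of 26 alternatives, among them no filter on low counts (0.037), at least 10 cells per fragment (0.039) and thinning (0.04).

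Cldn3 kept a narrow range within each luminal class. In ER+ cells it averaged 949 ± 128 CPM in nipple, 1156 ± 154 in duct and 1133 ± 102 in TEB (adjusted p = 0.3 across locations), and in ER- cells 1707 ± 113, 2024 ± 188 and 1880 ± 385 (adjusted p = 0.65). Cldn7 averaged 727 ± 112, 995 ± 165 and 874 ± 118 CPM in ER+ cells (adjusted p = 0.11) and 1339 ± 273, 1539 ± 191 and 1209 ± 325 in ER- cells (adjusted p = 0.54). The 4 nipple fragments lay below all ducts for Cldn7 in ER+ cells, at 569.7 to 812 CPM against 813 to 1296, by a log2 difference of -0.45 with an adjusted p of 0.089, or of 0.037 without a filter on low counts.

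Ocln was higher in basal cells of the nipple than of TEBs. In basal cells Ocln was at 23.9, 84.6, 45.2 and 91.9 CPM in nipple fragments, at 3.01 to 22.2 with a median of 11.6 in ducts, and at 0 to 35.1 with a median of 6.39 in TEBs. Nipple fragments lay above all ducts, while T33, at 35.1 CPM, exceeded 1 nipple fragment. The mean for Ocln was 61.4 ± 32.3 CPM (n = 4) in nipple, 12.4 ± 7.74 (n = 6) in duct and 10.6 ± 12.6 (n = 6) in TEB. Ocln differed by 2.54 on the log2 scale between nipple and TEB (SE 0.76, adjusted p = 0.015) and by 2.31 between nipple and duct (SE 0.75, adjusted p = 0.06), with 0.013 across locations. The test of Ocln across locations did not pass without N22 (adjusted p = 0.077) or N24 (0.089), nor did nipple against TEB (0.062 and 0.071). The 129 nipple UMIs came from 28 of 97 cells, with 22 in the highest cell, and the thinned share was 12.4% (6.56 to 20.6) in nipple, 2.61% in duct and 4.88% in TEB. In the same basal sums the luminal keratins Krt8, Krt18 and Krt19 together averaged 4067 CPM in nipple, 6672 in duct and 2053 in TEB. The ER- markers together averaged 2339, 2053 and 1262 CPM, and the ER+ markers 69.2, 260 and 132. Among the 84 basal cells with fewer than 10 UMIs of Krt18, Ocln fell under the filter on low counts. The part of luminal transcripts in the Ocln difference was not tested.

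In ER+ cells Ocln did not pass, with means of 126 ± 46.4 CPM in nipple, 124 ± 23.6 in duct and 106 ± 22.8 in TEB. In ER- cells Ocln was at 129.5 to 157 CPM in nipple, 115 to 219 in duct and 48.6, 56.1, 77.7 and 114 in the 4 TEB fragments. TEB fragments lay below all the others for Ocln, yet the adjusted p was 0.21 for nipple against TEB and 0.23 for duct against TEB.

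F11r was higher in nipple basal cells than in duct basal cells. In basal cells F11r was at 332, 207, 299 and 369 CPM in nipple fragments, at 111 to 192 with a median of 147 in ducts, and at 187 to 272 with a median of 205 in TEBs. Every nipple fragment exceeded every duct, and N22 lay within the TEB range. The mean for F11r was 302 ± 69.4 CPM (n = 4) in nipple, 147 ± 33.4 (n = 6) in duct and 216 ± 30.2 (n = 6) in TEB, a log2 difference of 1.03 between nipple and duct (SE 0.23, adjusted p = 0.0044). Without any single fragment, the adjusted p for F11r between nipple and duct was 0.0029 to 0.032. Nipple exceeded TEB by 0.49 (adjusted p = 0.14). Among the 84 basal cells with fewer than 10 UMIs of the luminal keratin Krt18, in 12 fragments, the nipple and duct difference of F11r was 0.81 with an adjusted p of 0.51.

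In ER- cells F11r was at 460, 437, 327 and 482 CPM in nipple fragments, at 185 to 348 with a median of 259 in ducts, and at 153, 264, 279 and 159 in TEBs. All nipple fragments exceeded all TEBs, and the log2 difference of F11r was 0.998 (SE 0.28, adjusted p = 0.032); across locations the adjusted p was 0.058, and 0.016 to 0.047 under the 5 of 24 alternatives where it passed, DESeq2 and thinning among them. That difference of F11r did not pass without N21 (adjusted p = 0.066), N22 (0.059), N24 (0.099), T32 (0.1) or T42 (0.13), nor without a filter on low counts (0.075) or with at least 10 cells per fragment (0.79). In ER+ cells F11r averaged 229.5 ± 45 CPM in nipple, 260.3 ± 24.3 in duct and 250.4 ± 69.9 in TEB, with no difference past the threshold.

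Tjp1 was lower in ER+ cells of the nipple. In ER+ cells Tjp1 was at 18.1, 32.5, 8.74 and 3.22 CPM in nipple fragments, at 32.8 to 81.8 with a median of 55.8 in ducts and at 30.7 to 94.0 with a median of 59.1 in TEBs. Nipple fragments lay below all ducts, by a small gap between N22 and the lowest duct, and N22 exceeded 1 TEB. The mean for Tjp1 was 15.6 ± 12.8 CPM (n = 4) in nipple, 55.2 ± 16.6 (n = 6) in duct and 59.9 ± 23.9 (n = 6) in TEB. Tjp1 differed by -2.06 on the log2 scale between nipple and TEB (SE 0.48, adjusted p = 0.0067) and by -1.94 between nipple and duct (SE 0.48, adjusted p = 0.024). Nipple against TEB passed without any single fragment (adjusted p = 0.0015 to 0.03). The test of Tjp1 across locations, at 0.015, did not pass without N23 (0.057) or N24 (0.064), nor did nipple against duct without D52 (0.058), N23 (0.068) or N24 (0.077) or with only these locations in the fit (0.064). The nipple value of Tjp1 rests on 27 UMIs in 13 of 43 cells, and 4.87 were expected from the pooled RNA. Within both ER+ clusters the pooled level of Tjp1 was lowest in the nipple, at 19.4 CPM (exact 95% interval 8.38 to 38.2) against 51.9 in duct and 72 in TEB in the first, and at 11.5 (6.93 to 18) against 53.6 and 50.4 in the second. These intervals cover counting error only.

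In basal cells Tjp1 averaged 44.1 ± 15.1 CPM in nipple, 36.3 ± 22.9 in duct and 25.7 ± 19.1 in TEB. In ER- cells it averaged 57.8 ± 56.3, 40.3 ± 31.3 and 86.0 ± 43.1 CPM. Neither class had a difference of Tjp1 past the threshold, and the fragments of a location spread over more than 10-fold in places, from 2.74 to 98.2 CPM in ER- cells of ducts.

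Epcam was detected in nearly every epithelial cell, and no difference between locations passed within a class in the reported fits. In basal cells Epcam averaged 913 ± 246 CPM in nipple, 1033 ± 240 in duct and 771 ± 182 in TEB (adjusted p = 0.16 across locations). In ER+ cells it averaged 1750 ± 208 CPM in nipple, 2167 ± 257 in duct and 2007 ± 232 in TEB (adjusted p = 0.21). In ER- cells Epcam was at 3694, 4110, 3262 and 3957 CPM in nipple fragments, at 3070 to 3795 with a median of 3382 in ducts, and at 3225, 2477, 3003 and 1999 in TEBs. All nipple fragments exceeded all TEBs, and the log2 difference of Epcam was 0.49 (SE 0.15, adjusted p = 0.052). It passed under 7 of 25 alternatives, among them DESeq2 (0.033) and a UMI minimum of 10000 (0.029).

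Whether a location difference itself differed between classes was tested with a class-by-location term, with the fragment as a block. Between basal and ER+ cells 3 of the 8 genes passed, where 6.76% of 9368 genes did: F11r (adjusted p = 0.0062), Ocln (0.019) and Cldn1 (0.044). For Ocln and F11r, nipple fragments lay above all ducts and overlapped TEBs in basal cells, and overlapped ducts and TEBs in ER+ cells. Without N22 or N24 the term for Ocln did not pass (0.12 and 0.11). The term for Cldn1 rests on 0 nipple UMIs in basal cells and on the single N24 cell in ER+ cells, and did not pass without N24 (0.17) or without any of D31, D32, D51, D52, D62, T32, T33, T34, T42 and T43 (0.051 to 0.17 over all these fits), nor with the finer clustering (0.21). For F11r the term passed without any single fragment (0.0058 to 0.04) but not when cells were thinned to 5000 UMIs (0.15). Tjp1 missed the threshold (adjusted p = 0.06), and passed without the fragment block (0.042) and without N22 (0.029) or T42 (0.034).

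Between basal and ER- cells 1 of 8 genes passed (2.79% of 7944 genes), Cldn1, with an adjusted p of 0.0012 and of 0.0012 to 0.0073 without any single fragment, but of 0.057 when cells were thinned. In both classes Cldn1 was lowest in the nipple, with 0 UMIs in basal cells. On the basal side the term rests on these 0 UMIs and on 9 in ducts, under the 16.4 expected from the pooled RNA. Cldn1 also fell under the filter in the basal fit, so the passes without single fragments add no support for this term. Between ER+ and ER- cells 2 of 8 passed (1.85% of 8637 genes), Epcam (adjusted p = 0.0097) and Cldn4 (0.011). For Epcam the TEB level relative to nipple was lower in ER- than in ER+ cells by 0.78 on the log2 scale, since TEB lay below nipple in ER- cells (2676 against 3756 CPM) and above it in ER+ cells (2007 against 1750). For Cldn4 that term was -0.74, with TEB below nipple in ER- cells and near it in ER+ cells. The term for Epcam passed without any single fragment (0.0052 to 0.047), while that for Cldn4 did not pass without T32 (0.11) or T42 (0.094) or without the fragment block (0.13).

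Other junction genes are given by lists. In basal cells Amotl1, a scaffold of the junction plaque, differed across locations (adjusted p = 0.0054). Of the adherens junction genes 5 of 9 differed, among them Cdh1, the gene of E-cadherin, at 365 ± 75.0, 210.5 ± 51.2 and 94.9 ± 21 CPM (adjusted p = 7.9e-07), Pvrl1, which encodes nectin-1 (0.005), and Cdh3, which encodes P-cadherin (0.0052). Cdh1 was higher in nipple than in TEB by 1.95 on the log2 scale (SE 0.24), with no overlap between these fragments. Desmosome genes differed for 3 of 7, led by Ppl (0.0025), Pkp1 (0.0027) and Perp (0.029), and polarity genes for 2 of 9, Crb3 (0.014) and Mpp5 (0.042). Cxadr, a further junction membrane protein, differed as well (0.0038). Among EpCAM proteases, their inhibitors and epithelial regulators 2 of 10 differed, Ovol1 (0.001) and Snai2 (0.017); Snai2, which encodes the Snail family repressor Slug, had a log2 difference of -0.95 between duct and TEB. Other claudins differed across locations for 0 of 2 tested, and 0 had an unadjusted p under 0.05 in that test. Between nipple and TEB 2 of 2 had an unadjusted p under 0.05, and 0 passed after adjustment. Against the 20.6% of all basal genes called across locations, the counts stand as a description and the lists were not tested as sets.

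In ER+ cells 3 of 6 other claudins differed across locations, where 5.56% of all genes did. Cldn8, a claudin of tight distal nephron epithelium, was at 64.8 ± 37.1 CPM (n = 4) in nipple, 14.5 ± 6.04 (n = 6) in duct and 7.09 ± 4.22 (n = 6) in TEB, with nipple fragments above all others and a log2 difference of 3.24 between nipple and TEB (SE 0.57, adjusted p = 0.00029). Cldn10 went the other way, at 102 ± 47.9, 277 ± 99.8 and 252.5 ± 48.0 CPM (adjusted p = 0.003 for nipple against TEB), as did Cldn6, at 21.3 ± 20.2, 64.3 ± 44.1 and 84.2 ± 19.2 (0.017). Of the other lists, 2 of 7 other membrane proteins passed across locations (Cxadr, adjusted p = 0.014, and Igsf5, 0.025), 1 of 12 scaffolds (Magi1, 0.046), 1 of 9 desmosome genes (Perp, 0.001), 2 of 13 regulators (Klf4, 0.022, and Spint1, 0.048), 0 of 12 polarity genes and 0 of 9 adherens junction genes, of which 1 and 2 had an unadjusted p under 0.05. In ER- cells, where 4.10% of all genes passed across locations, 2 of 11 regulators (Klf4, 0.014, and Ehf, 0.025) and 2 of 8 desmosome genes (Perp, 0.026, and Dsc2, 0.043) passed, and 0 of 4 other claudins, 0 of 6 membrane proteins, 0 of 10 scaffolds, 0 of 10 polarity genes and 0 of 9 adherens junction genes did, where 2, 1, 2, 1 and 1 had an unadjusted p under 0.05. Klf4 in ER- cells was at 75.2 ± 51.7 CPM in nipple, 89.1 ± 22.5 in duct and 9.59 ± 8.64 in TEB.

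Over the 46 class sums, the genes whose log2 levels were most like each member were found among 5216 genes tested in all 3 classes; the sums share fragments and classes, so Pearson's r is a description. Cldn3 was most like Cldn7 (0.962), St14 (0.957) and Cldn4 (0.94), and Cldn4 most like Spint1 (0.964), Cldn7 (0.941) and Cldn3 (0.94). St14 encodes matriptase and Spint1 its inhibitor. Cldn7 was most like Cldn3 (0.962), Clu (0.951) and Cldn4 (0.941), Epcam like Cldn7, Clu and Krt18 (each 0.92), and Ocln like Tmc4 (0.879), Sgms2 and Krt18 (both 0.865). F11r and Tjp1 had no close match, with highest values of 0.674 (Arpc1b) and 0.53 (Rabl5).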

How the data were processed

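The deposited table holds raw UMI counts per gene and cell, in 16 fragments of 3 locations, with 67 ERCC spike-ins (0.758% of UMIs). According to the study's methods and the submitters' processing notes, the authors used UMI-tools, Trim Galore, FastQC, STAR on mm10 with unique alignments, and featureCounts; versions, the strand setting and the sort gate are not given in the sources used here. Total counts per fragment were 1856141 to 5233122, and 0 samples were left out. The table holds as many cells as the study's methods state, 1419, of which the stated limits left 1317.

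Cells with at most 5% spike-ins, 5000 to 120000 UMIs and 200 to 6000 genes were clustered in Seurat 5.3.0 (2000 variable genes, 14 components, resolution 0.5) and clusters were named from marker lists; 70 cells of a mast-gene cluster stayed unnamed, and no doublet caller was run. Sorted wells share barcodes by design: 95 of 96 listed well barcodes recur among fragments, so a cell is a fragment and a barcode. Counts were summed per fragment and class with at least 5 cells and tested in edgeR 4.0.16 (quasi-likelihood test with robust dispersions, low counts removed by filterByExpr, libraries scaled by TMM, and the 3 locations fitted together) under R 4.3.3, after a test on simulated data. Adjusted p-values are Benjamini-Hochberg values over all genes tested, with a threshold of 0.05. CPM are TMM-scaled, and r used log2(CPM + 1). Class-by-location terms had the fragment as a block. The rule for named genes took all 8 genes, up to 3 genes of each other list and class with the smallest p among those past the threshold, and 3 most alike genes for each gene tested in all classes. The genes and lists were chosen with earlier results of these data known. Alternatives were DESeq2 1.42.0, no filter on low counts, fits of 2 locations, other cell limits, thinning, other clusterings, blocks, and leaving out each fragment. Fragments sharing a label number (31 and 32 in ducts and TEBs) did not deviate together. Results for some genes of the other junction lists are not reported here.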

Additional observations from a re-analysis of the deposited data

Results flagged for a closer look

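Where values are normally distributed, Dixon's test flags about 1 in 20 groups by chance, a rate that need not hold for groups with counts near 0. There were 72 groups of 4 to 6 fragments, and Cldn1 in nipple basal cells, at 0 throughout, could not be tested. Of these groups, 6 had a fragment that stood apart from the rest of its group by Dixon's test. In basal cells these were Cldn3 in duct fragment D31, high at 175.4 CPM (others 9.15 to 40.3), Cldn3 in nipple fragment N24, low at 9.571 CPM (others 37.8 to 42.7), Cldn4 in TEB fragment T34, high at 377.2 CPM (others 100.5 to 197), and Ocln in TEB fragment T33, high at 35.12 CPM (others 0 to 11.7). In ER+ cells Cldn1 stood at 66.05 CPM in nipple fragment N24 (others 0 to 1.81), and in ER- cells Tjp1 stood at 98.16 CPM in duct fragment D32 (others 2.74 to 38.0).

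The location differences of 4 genes and of Cldn1 in 2 pairs of classes differed between classes by the class-by-location term. Between basal and ER+ cells the adjusted p (edgeR) was 0.044 for Cldn1, 0.019 for Ocln and 0.0062 for F11r. Between basal and ER- cells it was 0.0012 for Cldn1. Between ER+ and ER- cells it was 0.011 for Cldn4 and 0.0097 for Epcam. The terms for Cldn1 rest on 0 UMIs in nipple basal cells.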

How the results depend on the processing

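Over all alternatives no called difference of the 8 genes changed sign; of the values for single genes, 2777 stayed on their side of the threshold, 57 lost it and 36 gained it. Counts of genes past the threshold that moved by over 1.5 times are given here, with the reported count in brackets; where fewer cells, fragments or genes entered a fit the change comes with that, and otherwise the cause was not tested. In basal cells, nipple against duct gave 2 [1] with DESeq2, 2 with only these locations and 2 with at least 10 cells, each time by adding Ocln; nipple against TEB gave 2 [1] without a filter, by adding Cldn1, and 2 with only these locations. In ER+ cells, dropping the filter gave 2 [1] for nipple against duct, by adding Cldn7, and 3 [1] across locations, by adding Cldn4 and Cldn7; only 2 locations gave 0 [1] for nipple against duct; at least 10 cells gave 2 [1] across locations; scaling without regression gave 2 [1] across locations and 1 [0] for duct against TEB, each time by adding Cldn4. In ER- cells, nipple against TEB gave 1 [3] with only these locations, and at least 10 cells gave 0 [3], with 0 [1] for duct against TEB and 1 [2] across locations. Thinning to 5000 UMIs left Ocln in basal cells and Tjp1 in ER+ cells under the filter and gave 0 [1] for nipple against TEB and 1 [2] across locations in basal cells, 0 [1], 0 [1] and 1 [0] in the ER+ pairs, and 1 [3] and 0 [1] for the terms of basal with ER+ and with ER- cells. Basal cells with fewer than 10 UMIs of Krt18 gave 0 [1], 0 [1] and 0 [2], with Ocln under the filter. Without the fragment block, the term for ER+ and ER- cells gave 1 [2].

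Some calls moved while their count did not move by over 1.5 times. In ER- cells, nipple against TEB gained Epcam with DESeq2 (adjusted p = 0.033), a UMI minimum of 10000 (0.029) and scaling without regression (0.043, which lost Cldn4 at 0.052), and lost F11r without a filter (0.075). Across locations F11r was gained there with DESeq2 (0.016), thinning (0.035), a UMI minimum of 10000 (0.037) and scaling without regression (0.047). The term for basal and ER+ cells gained Tjp1 without the fragment block (0.042) and lost Cldn1 at resolution 1 (0.21).

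The replicate block, which pairs fragments 31 and 32 of ducts and TEBs, gave 1 [0] in basal cells by adding Epcam and 0 in ER+ cells; in ER- cells it could not be fitted. The correlation of paired deviations was -0.015 to 0.044, so these numbers are not taken as pairs. With the first digit of the number as a block, duct against TEB in ER- cells gave 0 [1], losing Cldn4.

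Leaving out each fragment gave, for nipple against TEB, nipple against duct, duct against TEB and across locations, 1 to 2, 1 to 2, 0 to 1 and 2 to 3 in basal cells, 1 to 1, 0 to 1, 0 to 1 and 0 to 2 in ER+ cells, and 0 to 4, 1 to 1, 0 to 1 and 1 to 3 in ER- cells; the 3 terms gave 1 to 3, 1 to 1 and 1 to 2. Depth limits Cldn1, Ocln and Tjp1 most, since their class sums hold as few as 0 to 2 UMIs in some fragments.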
